A study of Mus musculus with 6 samples.

Results

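The heat shock chaperone genes described here are Hsph1, Hspa1a, Hspa1b, Hspa8, Dnajb1, Dnaja1, Hsp90aa1, Hspd1, Hspe1 and Hspb1, 10 of the 24736 gene symbols in the table of expression values. They were chosen by name, with their values in WT and Mtg16-/- crypts already known, so the difference between genotypes in these genes is given as a description with no test. Most of them encode cytosolic proteins, whereas Hspd1 and Hspe1 encode mitochondrial chaperones, so the set is wider than the cytosolic compartment. RNA sequencing was performed on intestinal crypts of 6 male mice of 12 weeks, 3 WT and 3 labelled Mtg16-/-, with 1 library per mouse. The crypts came from the whole length of the gut after incubation in cold PBS with EDTA. The labels call the deletion CRISPR-induced, whereas the study describes the Mtg16-/- animals as a gift from another laboratory, and this difference was not resolved. MTG16 is a transcriptional co-repressor, and the comparison with WT was made to see how gene expression changes when it is absent. The labels and methods name no promoter or Cre that would limit the deletion to the epithelium. All values are TPM, a unit of transcript abundance that corrects for transcript length and scales every library to the same total, so the number of reads behind each value is unknown.

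Heat shock proteins bind unfolded proteins and help them to fold, and several are made in larger amounts when cells are heated, handled or otherwise stressed. HSP70 proteins hold and release their clients with the help of J proteins, which start the cycle, and of HSP110 proteins, which exchange the bound nucleotide, while HSP90 acts on clients that are nearly folded. The stress-induced part of this response is switched on by heat shock factor 1 (HSF1), which binds heat shock elements, inverted repeats of short units in the promoters of its targets. In the intestine, crypt cells divide quickly and secrete large amounts of protein, and both need chaperones.

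Promoter windows of 300 bases, from 250 before to 50 after a transcript start, were taken from RefSeq on GRCm38.p6 for 8 of the 10 genes. No window was available for Hspa8 or Hsp90aa1 in the set used. The letters searched were the pairs GAANNTTC and TTCNNGAA and, as a 3-unit element made of overlapping pairs, GAANNTTCNNGAA and TTCNNGAANNTTC. Each pair reads the same on both strands, and the 3-unit forms are each other's reverse complement. A pair was present in 7 of the 8 genes, all but Dnajb1, and in 17.0% of the 27025 genes that have a window. A 3-unit element was present in Hsph1, Hspd1 and Hspe1, against 0.662% of all genes with a window. Only exact letters were searched, so elements with changed letters were not counted. A window without a match, as for Dnajb1, is not shown to lack an element. The stretches that carry these letters are shown 5′ to 3′ in the sense of the named gene, with the matching bases in capitals. They show how the motif lies in the inducible HSP70 promoter, in Hsph1 and between a start of Hspd1 and that of Hspe1.
Hspa1b, chr17:34959239-34959388, minus strand: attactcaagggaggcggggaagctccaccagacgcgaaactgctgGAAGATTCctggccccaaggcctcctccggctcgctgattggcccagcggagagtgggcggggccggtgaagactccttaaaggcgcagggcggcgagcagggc
Hsph1, chr5:149636287-149636308, minus strand: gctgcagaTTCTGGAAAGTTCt
Hspe1, chr1:55087933-55088147, plus strand: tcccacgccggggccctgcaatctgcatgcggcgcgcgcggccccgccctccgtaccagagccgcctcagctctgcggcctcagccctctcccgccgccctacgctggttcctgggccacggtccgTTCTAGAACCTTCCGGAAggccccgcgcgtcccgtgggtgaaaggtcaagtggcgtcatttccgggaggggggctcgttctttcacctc

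The 150 bases before the start of Hspa1b matched those of Hspa1a at 149 positions, with the pair from 104 to 97 bases before the start in both genes. In Hsph1 the 3-unit element lay 37 to 49 bases after the upstream one of its starts. Hspd1 and Hspe1 lie head to head on chromosome 1, and the stretch shown runs from the base after one of the Hspd1 starts to the base before the Hspe1 start. Its run of alternating units holds both forms of the 3-unit element, and it was counted for both genes although it is the same DNA. A match of letters is a description of the window, and no binding was measured here.

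**Figure D1:**
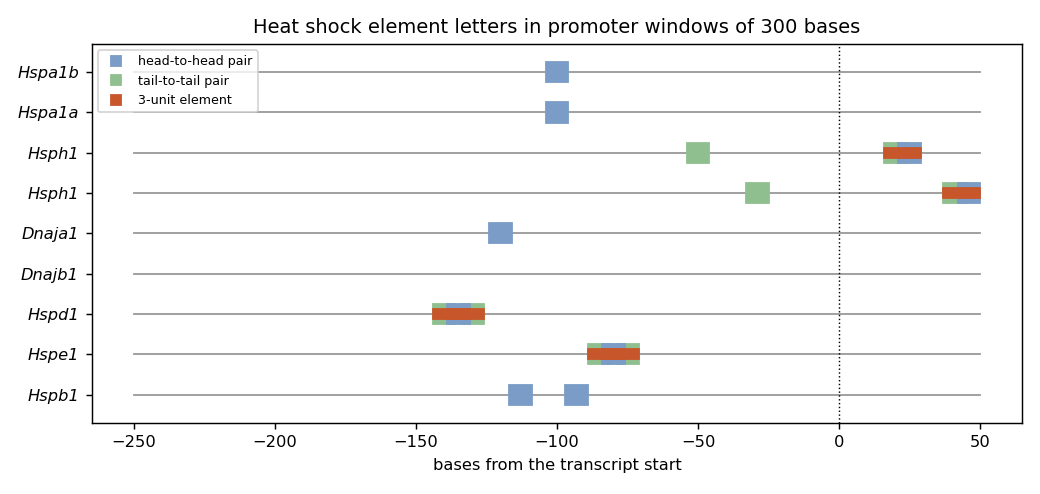
Positions of heat shock element letters in the promoter windows of 8 heat shock chaperone genes. The x axis gives bases from the transcript start, each line is a window of 300 bases that holds a match (for Dnajb1, which has none, 1 line stands for its windows), and boxes mark pairs and 3-unit elements. The 3-unit element appears in Hsph1 after the start, and before it in Hspe1 and in the Hspd1 window that holds a match.

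Cbfa2t3, which encodes MTG16, was read first as a check of the labels. In WT its TPM was 3.67, 6.69 and 4.52, and libraries labelled Mtg16-/- gave 4.62, 6.43 and 3.23, so the groups overlapped (limma adjusted p = 0.937). A value for a whole gene cannot show a missing exon, and each direction given here rests on the labels. Epithelial transcripts were abundant in every library. The 9 markers listed for crypt epithelium, Epcam among them, had a summed TPM of 9042 to 9673 in WT and of 9800 to 10202 in Mtg16-/-. Epcam alone lay between 1087 and 1375. This sum does not separate crypt cells from enterocytes. Enterocyte markers summed to between 12095 and 35751 TPM in WT and between 6196 and 12359 TPM in Mtg16-/-, so enterocyte RNA was also present and varied between libraries. The stem cell markers Lgr5 and Olfm4 were the 2 of the 9 with an unadjusted p under 0.05, at 6.02 to 8.16 TPM in WT and 9.94 to 20.2 TPM in Mtg16-/- for Lgr5 (limma adjusted p = 0.266) and at 647 to 1147 and 1239 to 1611 TPM for Olfm4 (limma adjusted p = 0.309). Leukocyte markers summed to between 49.7 and 145.5 and stromal and endothelial markers to between 11.8 and 19.7, most of it Vim at 9.29 to 13.9. The endothelial markers Pecam1 and Kdr lay between 0.700 and 2.41 and between 0 and 0.120. In bulk crypts, fewer cells of a type and less RNA per cell cannot be told apart.

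The stress-inducible HSP70 genes, Hsph1, Hsp90aa1 and Dnaja1 were lower in every Mtg16-/- library than in every WT library. So was the constitutive HSP70 gene Hspa8, which differed less. Dnajb1, the mitochondrial pair and the hardly detected Hspb1 overlapped between the genotypes. Across all 10 genes the median difference in log2(TPM + 1), Mtg16-/- minus WT, was -0.53, against -0.03 over the 12268 tested genes, those whose TPM averaged 1 or more over the libraries. The mean was lower in the Mtg16-/- group for all 10, and the groups did not overlap for 6. Over all tested genes, 11.1% were lower and 9.94% higher in Mtg16-/- without overlap, 21.0% in either direction. Because the genes were chosen on this contrast, nothing is read from these counts. Of the 10, 9 reached the mean TPM of 1, and Hspa1a did so only through its WT values.

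**Figure D2:**
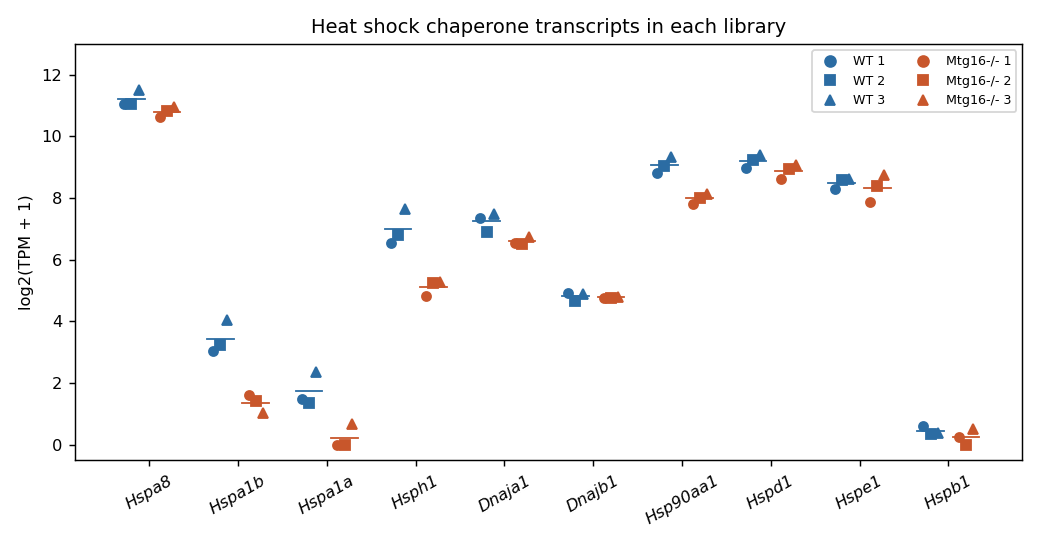
Level of the 10 heat shock chaperone genes in each library. The y axis is log2(TPM + 1), points are single libraries with 1 symbol per replicate number, and horizontal lines are group means. For Hsph1, Hspa1a, Hspa1b, Hspa8, Dnaja1 and Hsp90aa1 all WT points lie above all Mtg16-/- points, with WT replicate 3 highest in each.

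Hspa1a and Hspa1b encode the stress-inducible HSP70, and lie near each other on chromosome 17 (34969359 to 34972156 and 34956429 to 34959238). Hspa1b had a TPM of 7.21, 8.51 and 15.4 in WT replicates 1 to 3 and of 2.07, 1.66 and 1.06 in the Mtg16-/- replicates, a difference of -2.08 on the log2(TPM + 1) scale (standard error 0.29). The groups did not overlap, and the mean TPM was 10.4 ± 4.41 in WT and 1.60 ± 0.508 in Mtg16-/- (SD, n = 3 each).
Hspa1a had a TPM of 1.80, 1.57 and 4.18 in WT and was listed at 0, 0 and 0.61 in Mtg16-/-, a difference of -1.51 (standard error 0.35) that was -3.63 with a pseudocount of 0.1. It was below the level of Hspa1b in all 6 libraries. The 2 genes are near-identical copies. Of the 75-base stretches of their GENCODE transcripts, 52.7% of those of Hspa1a and 55.8% of those of Hspa1b occur in the other gene, so the quantification could have divided reads between them and single values are uncertain. Their sum depends on that division only through transcript length, which is 2967 bases for Hspa1a and 2803 bases for Hspa1b. It was 9.01, 10.1 and 19.6 TPM in WT and 2.07, 1.66 and 1.67 TPM in Mtg16-/-, with a wide spread among the WT mice and a narrow one among the Mtg16-/- mice.

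Hspa8 (chromosome 9, 40801276 to 40805202) encodes the HSP70 that cells make without stress, and it was the most abundant of the 10 genes. Its TPM was 2117, 2144 and 2926 in WT and 1599, 1805 and 1971 in Mtg16-/-, a log2 difference of -0.41 (standard error 0.20). The groups did not overlap, but the gap between WT replicate 1 and Mtg16-/- replicate 3 was smaller than the spread within either group. Without WT replicate 3 the difference was -0.26. Hspa8 made up between 54.7% and 57.7% of the summed TPM of the 10 genes in WT and between 58.1% and 61.5% in Mtg16-/-. That sum was 3667, 3918 and 5069 TPM in WT and 2597, 3044 and 3390 TPM in Mtg16-/-, and the groups did not overlap.

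Hsph1 (chromosome 5, 149616843 to 149636498) encodes an HSP110 protein, which resets HSP70 by nucleotide exchange. It had a TPM of 91.5, 110.4 and 201 in WT and of 27.3, 37.1 and 37.5 in Mtg16-/-. The difference was -1.88 on the log2(TPM + 1) scale (standard error 0.28), with a mean of 134 ± 58.7 in WT and 34.0 ± 5.76 in Mtg16-/- (SD, n = 3 each). The Mtg16-/- mean was 25.3% of the WT mean, and WT replicate 3 stood above the other WT libraries. Without that library the log2 difference of Hsph1 was -1.55 and that of Hspa1b was -1.79, so both kept their direction.

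Dnaja1 and Dnajb1 encode J proteins that deliver clients to HSP70. Dnaja1 (chromosome 4, 40722468 to 40734965) had a TPM of 161, 118 and 180.2 in WT and of 92.55, 89.4 and 106 in Mtg16-/-, a log2 difference of -0.65 (standard error 0.17) without overlap. Dnajb1 (chromosome 8, 83608175 to 83612653) had a TPM of 29.6, 24.1 and 28.85 in WT and of 26.4, 26.2 and 26.9 in Mtg16-/-. The WT values lay on both sides of the Mtg16-/- values, and the log2 difference was -0.05 (standard error 0.13). Dnajb1 is a well-known HSF1 target, and it overlapped between genotypes where Hsph1 and Hspa1b did not. The part of HSF1 in these values was not tested. Per 100 TPM of Dnajb1 there were 491 to 625 TPM of Dnaja1 in WT and 341 to 394 TPM in Mtg16-/-.

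Hsp90aa1 (chromosome 12, 110691036 to 110696395) encodes the inducible form of cytosolic HSP90. Its TPM was 445, 528 and 651 in WT and 225, 258 and 282 in Mtg16-/-, a log2 difference of -1.07 (standard error 0.17). The Mtg16-/- mean was 47.1% of the WT mean, with a clear gap between the groups. Its constitutive partner Hsp90ab1, no member of the set, had a TPM of 1196, 1536 and 1686 in WT and of 1208, 1308 and 1288 in Mtg16-/-, with overlapping groups (log2 difference -0.20, standard error 0.18, limma adjusted p = 0.601).

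Hspd1 (chromosome 1, 55077833 to 55088243) and Hspe1 (chromosome 1, 55088148 to 55091317) encode HSP60 and HSP10, which fold proteins together in the mitochondrial matrix. Hspd1 had a TPM of 502, 596 and 669 in WT and of 391, 489.6 and 538 in Mtg16-/-, a log2 difference of -0.32 (standard error 0.18). Hspe1 had a TPM of 311, 387 and 393 in WT and of 235, 337 and 427 in Mtg16-/-, a log2 difference of -0.16 (standard error 0.22). The groups overlapped in both genes, and the highest Hspe1 value of all was that of Mtg16-/- replicate 3. These are the genes that share the longest run of heat shock units shown above, and a link between that run and their values was not tested.

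Hspb1 (chromosome 5, 135887919 to 135889563) encodes a small heat shock protein that keeps unfolded proteins soluble without using ATP. It was hardly detected, with a TPM of 0.510, 0.280 and 0.310 in WT and of 0.180, 0 and 0.420 in Mtg16-/-. It stayed under the filter on low values, the groups overlapped, and its difference cannot be interpreted at this level.

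**Figure D3:**
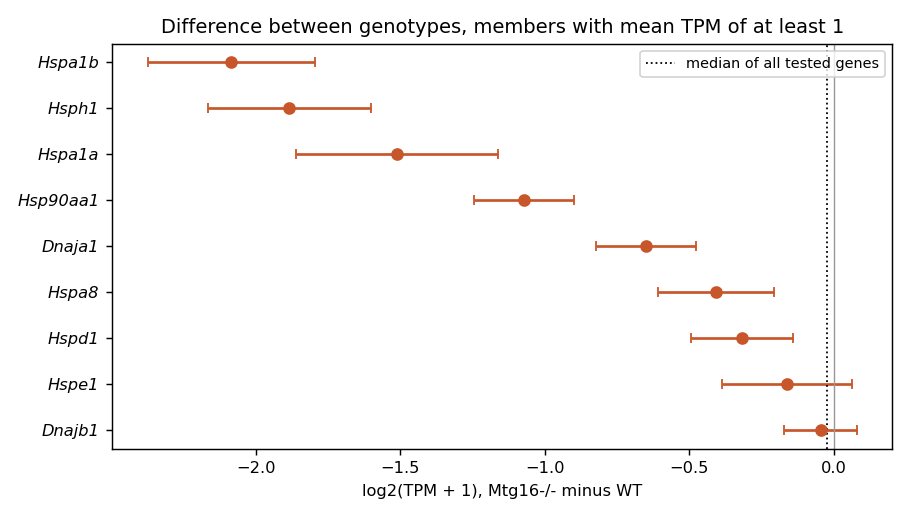
Difference in log2(TPM + 1), Mtg16-/- minus WT, for the 9 heat shock chaperone genes that passed the filter on low values. Points are limma estimates, bars are standard errors and the dotted line is the median of all tested genes at -0.03. The differences run from -2.08 for Hspa1b to -0.05 for Dnajb1.

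The 10 genes also varied among mice of 1 genotype. WT replicate 3 held the highest value of 7 of them, WT replicate 1 of Dnajb1 and Hspb1, and Mtg16-/- replicate 3 of Hspe1. The lowest value was that of Mtg16-/- replicate 1 for 6 of them, counting a shared 0 of Hspa1a. The mean of the 10 centred log2 profiles was 0.25, 0.27 and 0.72 in WT and -0.56, -0.44 and -0.26 in Mtg16-/-, so the WT mice were the more spread.

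Ratios within a library do not depend on how the libraries were scaled. These ratios were chosen after the values were seen. Hspa1a and Hspa1b together, per 1000 TPM of Hspa8, were 4.26, 4.70 and 6.70 TPM in WT and 1.29, 0.920 and 0.847 TPM in Mtg16-/-. Per 100 TPM of Hsp90ab1 there were 37.2, 34.3 and 38.6 TPM of Hsp90aa1 in WT and 18.6, 19.7 and 21.9 TPM in Mtg16-/-. The inducible form was thus lower relative to the constitutive form in both families, with no overlap of the groups. Hsp90ab1 is also counted in the HSF1-inducible list below, so its label as constitutive is relative. Hsph1 was also lower relative to Hspa4, another HSP110 gene, with 77.9, 84.2 and 150.1 TPM per 100 TPM of Hspa4 in WT and 28.7, 33.1 and 33.5 in Mtg16-/-. The mitochondrial pair behaved otherwise. Hspe1 per 100 TPM of Hspd1 was 58.8 to 65.0 in WT and 60.0 to 79.4 in Mtg16-/-, and the groups overlapped.

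**Figure D4:**
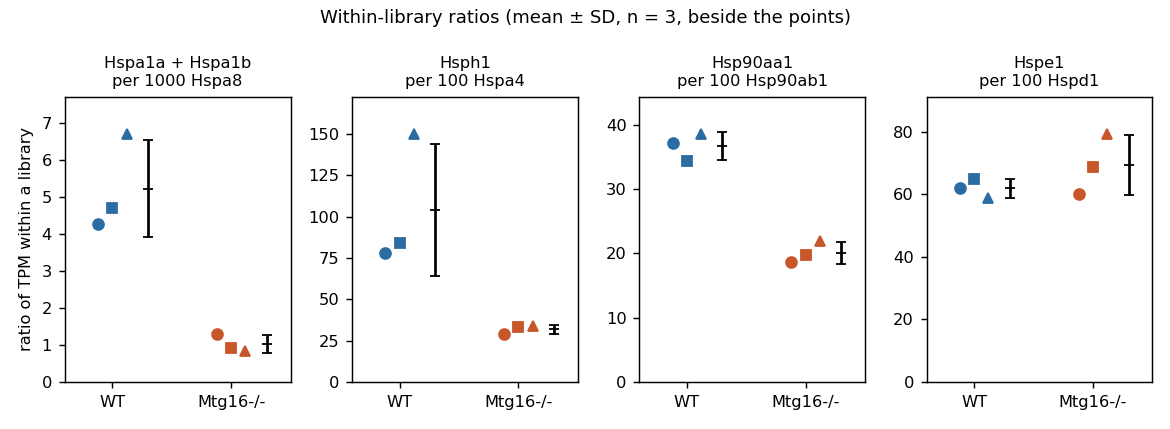
Ratios of TPM within each library for 4 pairs of chaperone genes. The y axes start at 0, points are libraries with 1 symbol per replicate number, and bars beside them are the mean ± SD (n = 3). The ratio of Hsp90aa1 to Hsp90ab1 lies between 34.3 and 38.6 per 100 in WT and between 18.6 and 21.9 in Mtg16-/-, whereas that of Hspe1 to Hspd1 overlaps.

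Other genes of the chaperone network were then tested with limma across all 12268 genes, at an adjusted p under 0.1. At this limit 0.0326% of all tested genes were called, 0.0163% as lower in Mtg16-/-, and 0 genes were called in the 8 chaperone lists, which hold 80 tested genes outside the set. At an unadjusted p under 0.05, 11 of these 80 were lower and 1 was higher in Mtg16-/-, where 8.05% and 6.53% of all tested genes were, 14.6% in either direction. In 15 of the 80 the Mtg16-/- values all lay below the WT values and in 2 all lay above, where 11.1% and 9.94% of all tested genes did. The 2 were the TRiC gene Cct4 and the prefoldin gene Pfdn5, named for this count after their values were seen. The median log2 difference of the 80 was -0.06. The 0 calls among the 80 depend on the model. With the replicate number as a block, 1201 genes were called in the whole table, some of them in these lists, as given at the end.

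The lists are described in turn, and differences between them were not tested. Of 20 HSF1-inducible genes 16 were tested, all 16 had a lower mean in Mtg16-/-, 6 had an unadjusted p under 0.05, and the median log2 difference was -0.36. These 16 include Hsp90ab1 and Hspa4, which served above as the genes that ratios were given per. A lower mean was also found in 52 of the 80 genes of all 8 lists. It was found in 14 of 15 chaperones of the endoplasmic reticulum, with a median of -0.67, where the median over all tested genes was -0.03. Ahsa2, which encodes an activator of the HSP90 ATPase, had a TPM of 16.2, 16.3 and 24.45 in WT and of 9.80, 10.2 and 11.2 in Mtg16-/- (log2 difference -0.78, standard error 0.18, limma adjusted p = 0.225). Stip1 encodes the adaptor that joins HSP70 to HSP90, and had a TPM of 127, 171 and 194.5 in WT and of 86.5, 93.8 and 107 in Mtg16-/- (log2 difference -0.75, standard error 0.18, limma adjusted p = 0.225). Hspa4l, an HSP110 gene, had a log2 difference of -0.68 (standard error 0.19, limma adjusted p = 0.263). Bag3, an exchange factor for HSP70 that was singled out after its values were seen, overlapped between the genotypes, and had a TPM of 27.1 to 33.7 in WT and of 27.65 to 31.2 in Mtg16-/- (limma adjusted p = 0.988).

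Among 16 HSP90 family and co-chaperone genes, 7 had an unadjusted p under 0.05, all lower, and 8 were lower without overlap, where 11.1% of all tested genes were. This list shares 7 genes with the HSF1-inducible list, and 4 of those counted at an unadjusted p under 0.05 are in both (Ahsa1, Ahsa2, Chordc1 and Stip1), so these counts are not separate. Fkbp5, an HSP90 co-chaperone of steroid receptors that is itself induced by glucocorticoids, had the largest difference, with a TPM of 33.5, 48.4 and 60.3 in WT and of 14.1, 12.3 and 15.7 in Mtg16-/- (log2 difference -1.65, standard error 0.21, limma adjusted p = 0.104). Without WT replicate 1, Fkbp5 was past the limit, with a limma adjusted p of 0.0405, whereas leaving out any other mouse gave 0.159 to 0.512.

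The remaining lists held few such genes. Of 14 tested HSP70 family genes and exchange factors, 2 were lower at an unadjusted p under 0.05, both also in the HSF1-inducible list, Hspa4l and St13, which encodes an HSP70-interacting protein (log2 difference -0.35, standard error 0.14, limma adjusted p = 0.313). Of 15 cytosolic J proteins 1 was lower, Dnajb2 (log2 difference -0.47, standard error 0.15, limma adjusted p = 0.272). Of 14 genes of the TRiC chaperonin, which folds actin and tubulin, and of prefoldin 1 was lower, Pfdn4 (log2 difference -0.46, standard error 0.15, limma adjusted p = 0.284), and the median of this list was -0.02. Of 13 mitochondrial chaperone and protease genes 1 was higher, the iron-sulfur cluster co-chaperone gene Hscb (log2 difference 0.48, standard error 0.17, limma adjusted p = 0.292), which is named after its values were seen and whose groups overlapped. Only 2 of 9 small heat shock protein genes were tested, and neither had an unadjusted p under 0.05. The summed TPM of the 9 was 9.95 to 13.4 in WT and 15.9 to 19.3 in Mtg16-/-. Most of that sum was the single gene Hspb11, with a mean TPM of 8.27 in WT and 11.5 in Mtg16-/- and overlapping groups.

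Heat shock factors were measured as well, 3 of 7 genes being tested with no unadjusted p under 0.05. Hsf1 had a TPM of 26.95, 34.8 and 36.5 in WT and of 25.6, 28.0 and 26.5 in Mtg16-/-, so the lowest WT value lay within the Mtg16-/- range (log2 difference -0.27, standard error 0.14, limma adjusted p = 0.410). Hsf2 had a TPM of 2.29 to 4.04 in WT and of 3.06 to 5.31 in Mtg16-/- (limma adjusted p = 0.525). An mRNA level says nothing of the activity of these factors, which are controlled after translation.

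**Figure D5:**
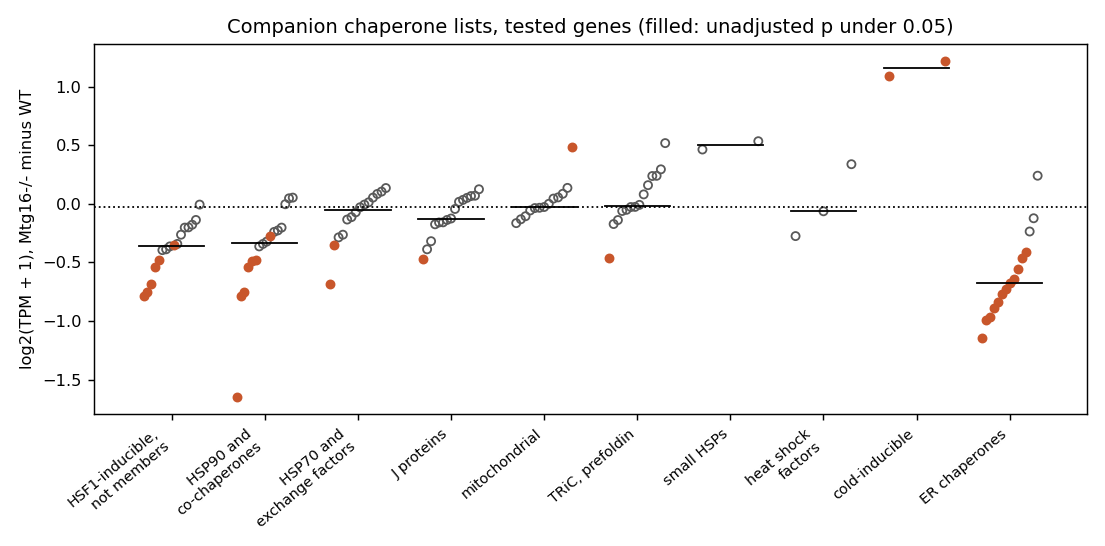
Difference in log2(TPM + 1), Mtg16-/- minus WT, of the tested genes in 8 chaperone lists and in lists of cold-inducible and endoplasmic reticulum (ER) genes. Each point is a gene, filled where the unadjusted limma p is under 0.05, short lines are list medians and the dotted line is the median of all tested genes. HSF1-inducible genes have a median of -0.36, the TRiC and prefoldin genes of -0.02, the cold-inducible genes of 1.16 and the ER chaperones of -0.67.

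The genes with a pattern over the 6 libraries most like the mean of the 10 were Ahsa2, St6galnac6, Stip1, Hspa4l, Zfpm1 and Manf. Likeness was measured as the root-mean-square difference between centred log2(TPM + 1) profiles, which was 0.055 for Ahsa2, 0.111 for St6galnac6, 0.126 for Stip1, 0.134 for Hspa4l, 0.136 for Zfpm1 and 0.146 for Manf, where the mean profile itself lies 0.453 from a flat line. St6galnac6 encodes a sialyltransferase with a TPM of at most 2.32, Zfpm1 a cofactor of GATA factors, and Manf a secreted protein of the ER stress response.

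Values of other gene groups and of cell type markers are given beside these genes. The cold-inducible RNA-binding gene Cirbp was higher in Mtg16-/-, with a TPM of 19.5, 24.1 and 22.0 in WT and of 47.1, 51.5 and 58.3 in Mtg16-/- (log2 difference 1.22, standard error 0.14, limma adjusted p = 0.0894). Rbm3, also induced by cold, had a TPM of 153, 189 and 238 in WT and of 323, 411 and 509 in Mtg16-/- (log2 difference 1.10, standard error 0.22, limma adjusted p = 0.171). Of 15 ER chaperones, 12 were lower at an unadjusted p under 0.05 and 1, Creld2, was called (log2 difference -1.15, standard error 0.13, limma adjusted p = 0.0894). Over all tested genes, 8.05% were lower and 6.53% higher at this unadjusted limit. Immediate early genes, which respond to tissue handling, had 3 of 12 tested genes lower at an unadjusted p under 0.05, and their summed TPM of 431 to 637 in WT overlapped with the 304 to 458 in Mtg16-/-. Summed enterocyte markers were 35751, 12095 and 15002 TPM in WT and 12359, 6872 and 6196 TPM in Mtg16-/-. They were highest in replicate 1 of each genotype, and the groups overlapped only in that Mtg16-/- replicate 1 lay above WT replicate 2. Summed Paneth cell markers were 9192 to 20044 TPM in WT and 24426 to 30122 TPM in Mtg16-/-, and enteroendocrine markers 372 to 464 and 522 to 602 TPM. Goblet cell markers overlapped, at 7264 to 11804 and 6454 to 9087 TPM. At an unadjusted p under 0.05, 7 of 12 enterocyte markers were lower, 7 of 9 Paneth cell markers and 6 of 9 enteroendocrine markers were higher and 2 of 7 goblet cell markers were lower, and none of these was called. With the replicate number as a block, 1201 of the 12268 tested genes were called. Among them, 12 enterocyte and 2 goblet cell markers were lower, and 5 Paneth cell and 4 enteroendocrine markers were higher. The part of these groups in the lower heat shock values was not tested.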

How the data were processed

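RNA was extracted from crypts of 3 WT and 3 Mtg16-/- mice, and libraries were made from total RNA with ribosomal RNA depleted. The authors deposited TPM values from RSEM, 1 column per library, rounded to 2 decimals. The submitters' processing notes name cutadapt 1.9.1, STAR 2.5.2a, RSEM 1.3.0, DESeq2 1.12.3 and mm10. TPM keeps no read number, so depth is unknown and no interval on counts is given, and strand use in counting was not given in the sources used here. A pseudocount of 1 was added before taking log2, and the 12268 genes whose TPM averaged 1 or more in the 6 libraries were fitted with limma 3.58.1 (R 4.3.3, intensity trend, no covariates), with Benjamini-Hochberg adjustment and a limit of 0.1. Differences on this scale understate changes of low genes. The fit was tested on simulated data. Genes and lists were chosen with earlier results of these data known. Named genes are the 10 chaperones, in each list the called genes or up to 3 without overlap and with the largest difference at an unadjusted p under 0.05, the 6 nearest profiles, Cirbp, Rbm3, Hsf1 and Hsf2. Of cell type marker and immediate early lists mainly sums and counts are given. Outside this rule, Hsp90ab1, Hspa4, Bag3, Hscb, Hspb11, Cct4, Pfdn5, Ahsa1 and Chordc1 were named after their values were seen, and Cbfa2t3, Epcam, Vim, Pecam1 and Kdr as checks of the libraries. Alternatives were a pseudocount of 0.1, no filter, median-ratio rescaling, the replicate number as a block, no trend and each mouse left out. Positions and promoters come from RefSeq GRCm38.p6, the assembly behind mm10, and transcripts from GENCODE.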

Additional observations from a re-analysis of the deposited data

How the results depend on the processing

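The depth of the libraries is unknown, so the precision of low genes such as Hspa1a and Hspb1 cannot be stated, and only 3 mice per genotype limit every test. Over 11 alternatives, 110 values of the 10 genes were recomputed, of which 107 stayed within 1 SD of the replicates, 3 moved further, all with a pseudocount of 0.1 (Hspa1a to -3.63, Hspa1b to -2.60 and Hspb1 to -0.90), and 2 changed sign (Dnajb1 without WT replicate 1, at 0.01, and Hspe1 without Mtg16-/- replicate 1, at 0.07). With a pseudocount of 0.1, which by construction widens the differences of low genes, the median difference of the 10 genes was -0.78 and that of summed Hspa1a and Hspa1b was -2.69, against -2.24 with a pseudocount of 1. With 1 mouse left out, these lay between -0.65 and -0.39 and between -2.44 and -1.91. The 4 genes called in the whole table became 0 without a filter, 1 with median-ratio rescaling and 0 without an intensity trend, and lay between 0 and 20 with 1 mouse left out (20 without WT replicate 1, 0 without Mtg16-/- replicate 3), and the cause was not tested. Genes without overlap, 2579 with all mice, lay between 3396 and 4751 when 1 mouse was left out, because fewer values were compared. Leaving out 1 mouse gave 0 to 1 calls among HSP90 family and co-chaperone genes. With the replicate number as a block, 1201 genes were called in the whole table. Among them were 5 HSF1-inducible genes, 1 HSP70 family gene and 6 HSP90 family and co-chaperone genes, all lower. The HSF1-inducible list shares genes with the other 2, so these counts are not separate. Also called were 1 mitochondrial gene, as higher, and 1 TRiC or prefoldin gene, as lower. This block also called 12 ER chaperone, 12 enterocyte, 2 goblet cell and 3 immediate early genes as lower. It called both cold-inducible genes and 5 Paneth cell, 4 enteroendocrine and 2 crypt epithelium markers as higher. Among J protein, small heat shock protein and heat shock factor genes it called 0. The deviations of same-numbered mice correlated at 0.429, 0.0753 and 0.237. Not every pair passed the limit of 0.1, so the replicate number was left out of the main fit. Whether same-numbered mice share more than a number is unknown, and the number of calls depends strongly on this choice.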
